A study of Homo sapiens with 6 samples.

Results

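The constitutive proteasome genes are those of the barrel-shaped 20S core particle (PSMA1 to PSMA7 and PSMB1 to PSMB7) and of the 19S regulatory particle with its dedicated chaperones (PSMC1 to PSMC6 and PSMD1 to PSMD14), 34 genes in all. They were chosen by symbol alone, and a gene was read only from probe sets that the array annotation assigns to exactly 1 gene. By this rule 30 of the 34 were measured, on 57 probe sets, of 19775 genes and 54613 probe sets tested. The measured genes comprised 13 of 14 core subunits, 14 of 17 subunits of the 19S base and lid, and all 3 chaperones. PSMA6, which shares its probe sets with another gene, and PSMC5, PSMD7 and PSMD13 are not analysed here.

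The study asked how a few cancer cells survive a targeted drug, and these arrays set the mRNA of such survivors against that of the cells they came from. All 6 cultures were PC-9, an established line of EGFR-mutant non-small cell lung cancer, and all carried a GFP vector. The 3 parental cultures received DMSO. The 3 cultures of drug-tolerant persisters (DTPs) held what survived 2 µM erlotinib, which blocks the kinase of EGFR, given for 9 days. By the protocol in the labels the drug was added at 80% confluency and DTPs were harvested on day 10, whereas parental cells were harvested on day 3 at 100% confluency. The study's methods instead give both treatments for 9 days, and which is right is not settled here. Drug, days in culture and cell density therefore cannot be told apart, nor can survival of a subset be told apart from a change within cells. RNA came from whole cultures, so fewer cells of a type and less RNA per cell cannot be told apart either.

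The proteasome degrades proteins that carry chains of ubiquitin. Substrates are bound by the 19S particle, stripped of ubiquitin by its lid, unfolded by the ATPase ring of its base and threaded into the 20S core, where the beta subunits PSMB6, PSMB7 and PSMB5 supply the caspase-like, trypsin-like and chymotrypsin-like activities. Interferon induces the replacement subunits PSMB9, PSMB10 and PSMB8, which take those places in the immunoproteasome. The transcription factor NFE2L1 (also called NRF1) is known for raising the proteasome genes together when proteasome activity falls, and it binds antioxidant response elements as a dimer with a small Maf protein.

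Because NFE2L1 and its relative NFE2L2 are among the genes described further on, the promoters of the proteasome genes were searched for the core of that element, TGACNNNGC, on either strand. RefSeq promoters (GRCh38.p14, 250 bases before to 50 after the start) were given for 25 of the 30 measured genes, and 8 of the 25 (32%) held the core, against 16.1% of 27305 genes with a promoter. The core stood in 2 of 9 promoters of the 20S core (22.2%) and in 4 of 13 of the 19S base and lid (30.8%). The matches before the start are shown, for the genes whose mRNA levels follow, in the direction of the gene with the core in capitals. Where the capitals begin with GC the match lies on the other strand.
PSMA4 (chr15:78540650-78540678, plus strand): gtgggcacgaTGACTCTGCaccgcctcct
PSMB3 (chr17:38752627-38752655, plus strand): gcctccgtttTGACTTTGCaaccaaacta
PSMD3 (chr17:39980760-39980788, plus strand): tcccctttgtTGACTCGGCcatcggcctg
PSMD12 (chr17:67366724-67366752, minus strand): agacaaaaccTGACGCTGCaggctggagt
PSMD5 (chr9:120843038-120843066, minus strand): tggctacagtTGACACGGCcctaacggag
PSMD9, nearer the start (chr12:121888678-121888706, plus strand): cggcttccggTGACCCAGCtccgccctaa
PSMD9, farther from the start (chr12:121888631-121888659, plus strand): cgctactcctGCCGGGTCAccacaggcgc
PSMB9 (chr6:32854034-32854062, plus strand): gggcggggctGCCTCGTCActtgtctcgg

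These matches start between 37 bases (PSMD3) and 165 bases (PSMD12) before the start site. A match is a description of the letters in the window and not evidence of binding. The CCAAT box, also searched on both strands, stood in 7 of 9 promoters of the 20S core (77.8%), 6 of 13 of the 19S base and lid (46.2%) and 39.7% of all genes. PSMB2 has it almost at the start site.
PSMB2 (chr1:35641512-35641540, minus strand): gcaggcgtcgcgCCAATcttcgctctgag

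Values on the arrays are log2 probe set summaries, on which a difference of 1 is a doubling. A gene rose or fell where limma's adjusted p was under 0.05, and was called where its fold also exceeded 1.5, the minimum of the study's methods. The 7 epithelial markers EPCAM, CDH1, KRT7, KRT8, KRT18, KRT19 and EGFR lay well above the median of all probe sets (7.29), but the lung marker NKX2-1 did not (5.56 in parental cells, 5.71 in DTPs). Of 8 fibroblast markers COL1A1 was called higher (8.44 to 11.1), COL1A2 fell (7.85 to 7.58, limma adjusted p = 0.027), and 4 others lay below the median in both groups. Of 5 leukocyte markers none was called, CD14 rose (5.76 to 6.10), LYZ fell (6.01 to 5.69), PTPRC lay below the median (5.36 and 5.32) and CD3E above it (8.42 and 8.25). Of 4 endothelial markers PECAM1 was called lower (10.1 to 9.40). The mean level of the fibroblast list was 7.01 to 7.09 on parental and 7.30 to 7.41 on DTP arrays, that of the leukocyte list 6.52 to 6.58 and 6.48 to 6.62, and that of the endothelial list 7.81 to 7.90 and 7.54 to 7.70. Their part in the results was not tested. Pearson's r over probe sets was 0.9968 to 0.9979 within groups and 0.9702 to 0.9755 between them.

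None of the 30 constitutive proteasome genes was called in either direction, whereas 8.08% of all genes were called higher in DTPs and 6.13% lower (14.2% in all). By limma's unadjusted p under 0.05, 8 of the 30 were higher and 2 lower, and of all 19775 genes 4445 were higher and 5624 lower. The methods' t-test, which the study names for comparisons other than its arrays, passed 6 of the 30 higher and 1 lower after Benjamini-Hochberg adjustment, and 3477 and 3479 of all genes. Past limma's adjusted p alone, 4 genes rose (PSMB2, PSMB3, PSMA4 and PSMD10) and 2 fell (PSMD9 and PSMA1), which is 13.3% and 6.67% of the 30. Over all genes those shares were 20.4% and 24%, or 44.5% together.

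On the 1 probe set read for each gene (its brightest, with those ending in _x_at set aside), the size of the differences was bounded closely. All 30 of the 95% intervals from limma lay within 1.5-fold in either direction, compared with 77.6% of the intervals of all genes. The outermost bounds were -0.50 (1.42-fold lower, PSMD9) and 0.40 (1.32-fold higher, PSMB2). Intervals of some other probe sets reached past 1.5-fold, among them PSMA5 (0.92 to 1.36), PSMD12 (0.48 to 0.80), PSMA3 (0.40 to 0.75) and PSMC2 (0.33 to 0.70). Log2 fold changes ran from -0.33 to 0.25, with a median of 0.04 against -0.05 over all genes, and the median absolute change was 0.10 against 0.17. The groups did not overlap for 16 genes, 12 with all DTP arrays above and 4 with all below, beside 23.9% and 29.8% of all genes. In both directions together that is 53.3% of the 30 and 53.7% of all genes.

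**Figure D1:**
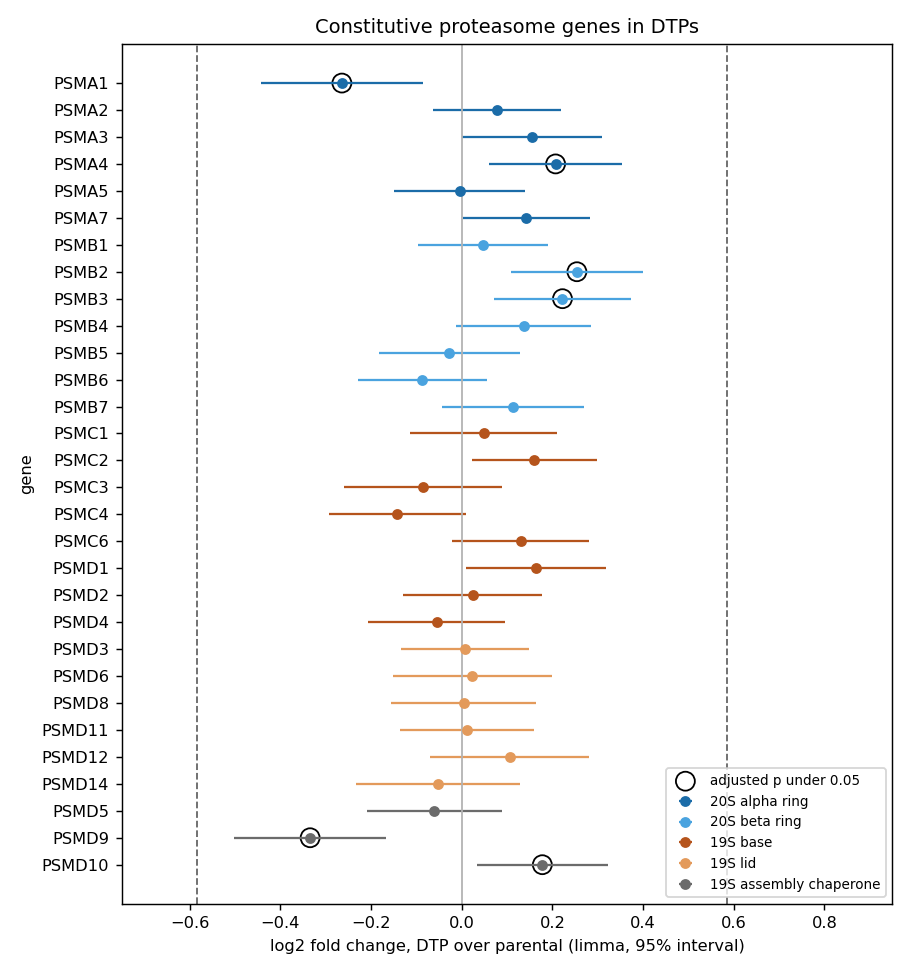
Log2 fold change (DTP over parental cells) of each of the 30 measured proteasome genes, on the 1 probe set read for it, with its 95% interval from limma, by place in the particle. Circles mark the 6 genes with an adjusted p under 0.05 and dashed lines mark 1.5-fold, which no interval crosses.

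In the alpha ring, which forms the gated ends of the core, PSMA4 rose and PSMA1 fell. PSMA4 measured 12.52, 12.51 and 12.54 in parental cells and 12.70, 12.68 and 12.82 in DTPs. All DTP arrays lay above all parental arrays, by 0.21 ± 0.07 (SE, 1.15-fold, limma adjusted p = 0.025, n = 3 per group). PSMA1 measured 12.42, 12.41 and 12.53 in parental cells against 12.08, 12.13 and 12.35 in DTPs. Here each DTP array lay below each parental array, and the difference was -0.26 ± 0.08 (1.20-fold lower, limma adjusted p = 0.019). Both changes were close to the threshold, and that of PSMA1 did not pass with centring on ribosomal protein genes or spike-ins (limma adjusted p = 0.15 and 0.52) or with its brightest probe set, an _x_at one (adjusted p = 0.079). Without parental replicate 1 or 2 the adjusted p of PSMA4 was 0.067 or 0.075, and that of PSMA1 was 0.067, 0.082 and 0.071 without parental replicate 3, DTP replicate 1 and DTP replicate 2.

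The other measured alpha subunits did not pass. PSMA3 (0.16, limma adjusted p = 0.097), PSMA7 (0.14, adjusted p = 0.090) and PSMA2 (0.08, adjusted p = 0.36) had higher values on every DTP array than on any parental array. On a brighter, _x_at probe set of PSMA7 (mean 13.2 against 10.4) the difference was 0.05 and the groups overlapped. PSMA5 overlapped between the groups on the probe set read for it (-0.00, 95% interval -0.15 to 0.14), but not on its second, dimmer one (1.14).

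Among the beta subunits, PSMB2 and PSMB3, structural members of the ring without a catalytic site, rose. PSMB2 measured 12.53, 12.48 and 12.52 in parental cells and 12.74, 12.71 and 12.84 in DTPs. This was the largest rise of the 30 genes, 0.25 ± 0.07 (1.19-fold, limma adjusted p = 0.0079), and it passed under every other limma setting run. PSMB3 measured 12.40, 12.35 and 12.38 in parental cells and 12.59, 12.52 and 12.69 in DTPs, a difference of 0.22 ± 0.07 (1.17-fold, limma adjusted p = 0.020). For both genes all 3 DTP arrays lay above the parental arrays. Without parental replicate 2 the adjusted p of PSMB3 was 0.069.

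The 3 catalytic subunits did not pass the test, and their 95% intervals together ran from -0.23 to 0.27. PSMB5, the subunit bound by the drug bortezomib, measured 12.12, 12.09 and 12.19 in parental cells and 12.00, 12.13 and 12.18 in DTPs. The groups overlapped, with a difference of -0.03 ± 0.07 (95% interval -0.18 to 0.13, limma adjusted p = 0.79). PSMB6 measured 13.02, 13.03 and 13.01 against 12.90, 12.89 and 13.00 in DTPs. Its DTP values lay below the parental ones by 0.09 on average (95% interval -0.23 to 0.06, limma adjusted p = 0.32). PSMB7 measured 12.88, 12.86 and 12.90 against 12.94, 12.93 and 13.11. Its DTP values lay above, by 0.11 (-0.04 to 0.27, limma adjusted p = 0.23), so the 3 catalytic genes did not share a direction, although PSMB5 and PSMB6 turned positive with centring on ribosomal protein genes or spike-ins. The remaining PSMB1 (0.05) and PSMB4 (0.14) did not pass either.

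In the 19S base, no gene of 8 passed on the probe set read for it. PSMC2, an ATPase of the unfolding ring, came nearest, with 12.88 on all 3 parental arrays and 13.06, 13.01 and 13.06 in DTPs (0.16 ± 0.06, limma adjusted p = 0.056). PSMD1, a large scaffold subunit of the base, measured 11.86, 11.92 and 11.91 against 12.09, 11.96 and 12.14. Its groups did not overlap either (0.16 ± 0.07, limma adjusted p = 0.080), and without DTP replicate 2 its adjusted p was 0.041. PSMC4, another ATPase, had the lowest value of the base (-0.14, limma adjusted p = 0.12), and all its DTP arrays lay below the parental ones; without DTP replicate 3 its adjusted p was 0.049. The ATPases PSMC1 (0.05), PSMC3 (-0.09) and PSMC6 (0.13), the scaffold PSMD2 (0.02) and the ubiquitin receptor PSMD4 (-0.06) lay between.

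On the probe set read for each, the 6 measured lid genes had the narrowest range, from -0.05 to 0.11, and the groups overlapped for all 6. PSMD14, the metalloprotease that cuts ubiquitin chains from substrates, measured 12.23, 12.19 and 12.27 in parental cells and 12.11, 12.06 and 12.36 in DTPs. The DTP arrays fell on both sides of the parental ones, and the difference was -0.05 ± 0.08 (95% interval -0.23 to 0.13, limma adjusted p = 0.65). PSMD3, PSMD6, PSMD8 and PSMD11 differed by 0.00 to 0.02 and PSMD12 by 0.11 (limma adjusted p = 0.32). Other probe sets of PSMD11 and PSMD12 rose, without overlap (0.30 and 0.64, limma adjusted p = 0.010 and 2.4e-05). A dim one of PSMD6 did not pass (-0.16, limma adjusted p = 0.075). PSMD3 and PSMD12 are among the genes whose promoter windows are shown.

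PSMD5, PSMD9 and PSMD10 carry subunit names but are chaperones that help to assemble the base and leave the finished particle. PSMD9 had the largest change of the 30, from 10.87, 10.92 and 10.99 in parental cells to 10.48, 10.57 and 10.72 in DTPs. Every DTP array lay below every parental array, by -0.33 ± 0.08 (1.26-fold lower, limma adjusted p = 0.0032), and it passed whichever array was left out. It did not pass with centring on spike-ins (-0.19, limma adjusted p = 0.25) or as the mean of its probe sets (-0.15, limma adjusted p = 0.065). PSMD10, also known as gankyrin, went the other way, from 11.80, 11.79 and 11.81 to 11.93, 11.95 and 12.06 (0.18 ± 0.07, 1.13-fold, limma adjusted p = 0.046). It no longer passed whichever of the 6 arrays was left out (limma adjusted p 0.056 to 0.12), nor in the fit over all probe sets (limma adjusted p = 0.063). PSMD5 overlapped between the groups on the probe set read (-0.06, adjusted p = 0.51), but fell on a dim one (-0.31, limma adjusted p = 0.0055).

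Set side by side, the core and the regulatory particle had medians 0.09 apart on the log2 scale, which is given as a description with no test. In the 20S core 3 of 13 genes rose (23.1%), 1 fell (7.69%) and 9 did not pass, with a median log2 fold change of 0.11. Over all genes 20.4% rose and 24% fell. Of the 14 genes of the base and lid none passed limma's adjusted p on the probe set read. Of the 14, 2 were higher at an unadjusted p under 0.05, and the methods' t-test passed 1 higher. Their median was 0.02, ranging from -0.14 to 0.16. All DTP arrays lay above the parental arrays for 8 of the 13 core genes and for 3 of the 14 genes of the base and lid, and below for 2 and 1, while of all genes 23.9% lay above and 29.8% below. The counts moved with the setting. In the core and in the base and lid, 9 and 4 genes rose with centring on ribosomal protein genes, 4 and 2 with spike-ins, 7 and 3 with cyclic loess, 6 and 2 when probe sets were averaged, 5 and 2 with an intensity trend and robust variances, and 3 and 2 without dim genes. The shares of all genes that rose in those settings were 29.2%, 24.1%, 22.6%, 21.2%, 21.1% and 29.2%, in the same order.

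The mean over genes, set against the parental mean, showed what these medians rest on. For the 20S core it was 0.03, 0.04 and 0.16 in DTP replicates 1, 2 and 3, and for the base and lid -0.02, -0.03 and 0.13. The 3 parental arrays lay between -0.02 and 0.02 in both. The core exceeded the base and lid by 0.05, 0.07 and 0.03 on the 3 DTP arrays.

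DTP replicate 3 stood apart from the other DTP arrays. It was the highest of the 3 for 30 of the 30 genes, while it was the highest for 41.3% of all genes. The spread between DTP arrays exceeded that between parental arrays for 28 of 30 genes (median SD 0.09 against 0.03), and over all genes these medians were 0.09 and 0.07. Without DTP replicate 3 the median over the 30 genes was -0.01 rather than 0.04, that of the base and lid was -0.03 and that of the core 0.05. In that setting 3 genes rose and 3 fell, beside 20.2% and 23.3% of all genes. The mean level of cytosolic ribosomal protein genes was 13.52, 13.55 and 13.58 on DTP replicates 1 to 3 and 13.67 on each parental array. The 3′ minus 5′ difference of GAPDH, a sign of RNA quality, was -0.18, -0.17 and -0.18 in DTPs and -0.17, -0.15 and -0.14 in parental cells. That of ACTB was 0.03, 0.08 and 0.06 in DTPs and 0.19, 0.17 and 0.14 in parental cells, so the groups did not overlap in either. Their part in the result was not tested.

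**Figure D2:**
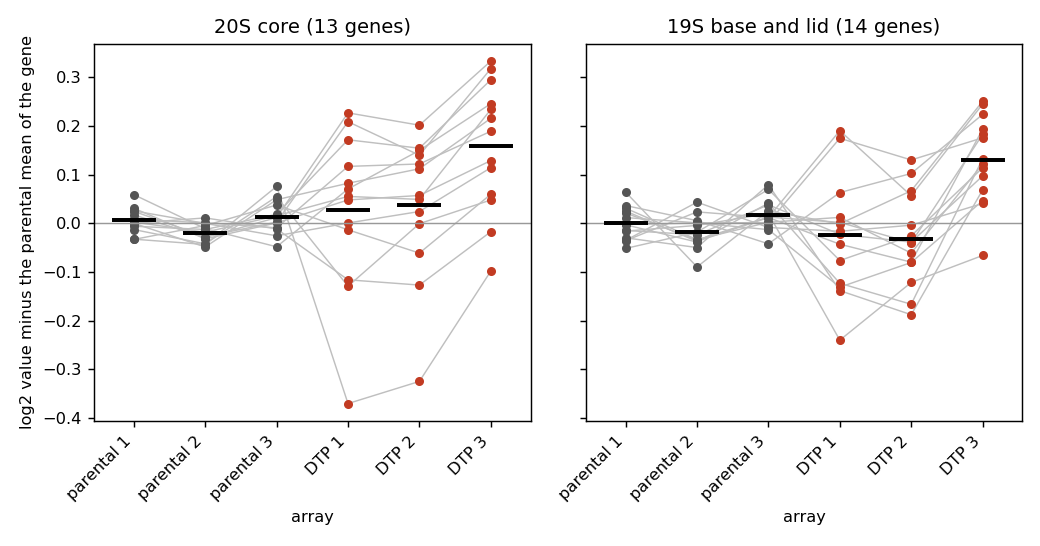
Log2 level of each gene relative to its parental mean on the 6 arrays, for the 13 genes of the 20S core and the 14 genes of the 19S base and lid. Each thin line is 1 gene, and lines join arrays only to make a gene visible. Black bars are array means, which in DTPs are 0.03, 0.04 and 0.16 for the core and -0.02, -0.03 and 0.13 for the base and lid.

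The size of such small medians depended on the scale, as did the direction of the median over all genes. Centring the arrays on ribosomal protein genes moved the median of all genes from -0.05 to 0.07, and centring on spike-in controls moved it to 0.10. On those scales the median of the 30 proteasome genes was 0.15 and 0.18, and the number that rose was 14 and 7, against 29.2% and 24.1% of all genes. The mean of the spike-ins was 11.15, 11.26 and 11.06 on parental and 10.89, 11.10 and 11.03 on DTP arrays, so it varied within groups and overlapped between them. The medians of the core and of the base and lid were positive on all 4 scales, cyclic loess included, although the median of the base and lid turned negative without DTP replicate 3. In all of these settings none of the 30 genes was called.

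Several genes were read by more than 1 probe set, and more of the probe sets passed over by the rule passed the test. The rule took the brightest one after setting aside those ending in _x_at, which left aside a brighter one for PSMA1, PSMA7 and PSMD4. Of the 57 probe sets 12 rose and 3 fell (18.6% and 20.1% of all probe sets, 38.7% together). In all 2 were called, both higher (7.56% of all probe sets were called higher and 4.93% lower). Among the 30 taken 3 rose, 2 fell and the median was 0.04. Among the 27 passed over 9 rose, 1 fell and the median was 0.14, and 9 of these 27 were dimmer than the median probe set on the array.

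Both called probe sets belonged to genes whose probe set taken by the rule did not pass. The second probe set of PSMD12 measured 9.80, 9.77 and 9.77 in parental cells and 10.38, 10.36 and 10.52 in DTPs (0.64, limma adjusted p = 2.4e-05). The second of PSMA5 measured 6.64, 6.75 and 6.46 against 7.58, 7.77 and 7.92 (1.14, limma adjusted p = 3.5e-06), so that its parental values were dimmer than the median probe set. In neither case did the groups overlap.

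For PSMC2 all 3 probe sets were higher in DTPs, the one taken by 0.16 and the others by 0.39 and 0.51 (limma adjusted p = 0.0019 and 4.5e-04). PSMA1 was lower on all 3 of its probe sets (-0.26, -0.17 and -0.15), although the groups were apart only on the one taken. The second probe set of PSMD9 differed by 0.04, unlike the one that fell, but its mean level of 7.59 was near the median of all probe sets (7.29). Of the 18 genes with more than 1 probe set, 14 had the same sign on all, and for none did probe sets pass in opposite directions.

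**Figure D3:**
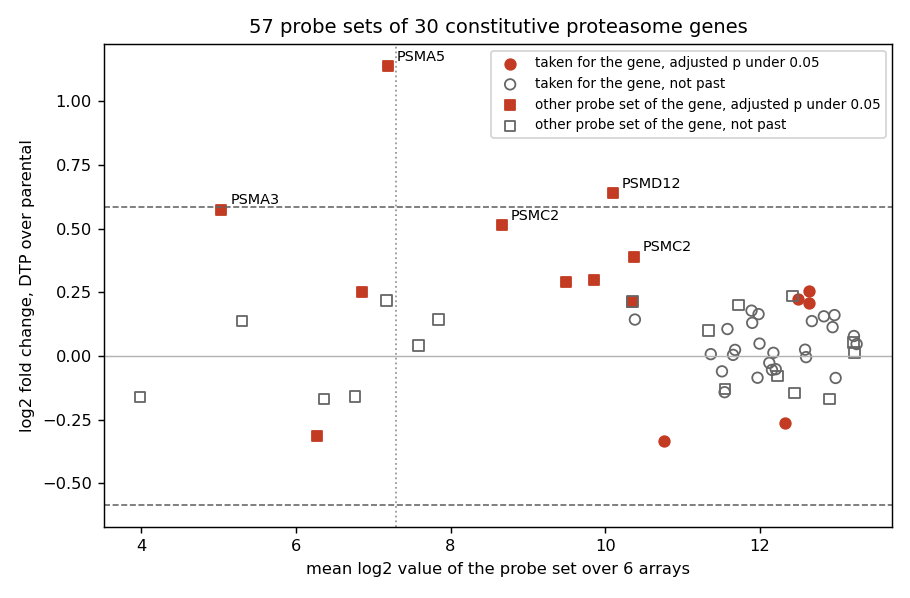
Mean log2 level over the 6 arrays against log2 fold change (DTP over parental cells) for the 57 probe sets of the 30 genes, with the probe set taken for each gene set apart from those passed over. The largest value, 1.14, is a dim probe set of PSMA5, and the next, 0.64, one of PSMD12.

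The replacement subunits of the immunoproteasome stood in contrast to the 3 catalytic genes they replace. PSMB9 measured 7.29, 7.29 and 7.32 in parental cells and 9.06, 9.18 and 9.16 in DTPs, a rise of 1.84 ± 0.07 (3.57-fold, limma adjusted p = 3.0e-10). The parental values lay at the median of all probe sets (7.29), where RMA does not tell a low level from background, so the folds of PSMB9 are ratios of array values and not of transcript amounts. PSMB10 rose from 8.39, 8.35 and 8.27 to 9.27, 9.39 and 9.42 (1.02 ± 0.07, 2.03-fold, adjusted p = 1.2e-07 by limma). PSMB8 rose from 10.11, 10.03 and 10.16 to 10.67, 10.70 and 10.85 (0.64 ± 0.07, 1.56-fold, limma adjusted p = 1.3e-05). All 3 were called and no groups overlapped, whereas the testis subunit PSMA8 did not pass (-0.14, limma adjusted p = 0.14).

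Within each array, the log2 ratio of PSMB9 to PSMB6 was above its parental mean by 1.88, 2.01 and 1.88 in DTPs, on average 1.92 (3.79-fold). The ratio of PSMB10 to PSMB7 was above it by 0.88, 1.00 and 0.85, on average 0.91 (1.88-fold). For PSMB8 and PSMB5 the ratio was above it by 0.70, 0.60 and 0.70, on average 0.67 (1.59-fold). Every DTP array exceeded every parental array in all 3 ratios, which a two-sided exact permutation test gives p = 0.10, the smallest value that 3 against 3 arrays allow (0.10 after adjustment over the 3 ratios). These ratios compare changes, and do not give the relative amounts of the transcripts or proteins.

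**Figure D4:**
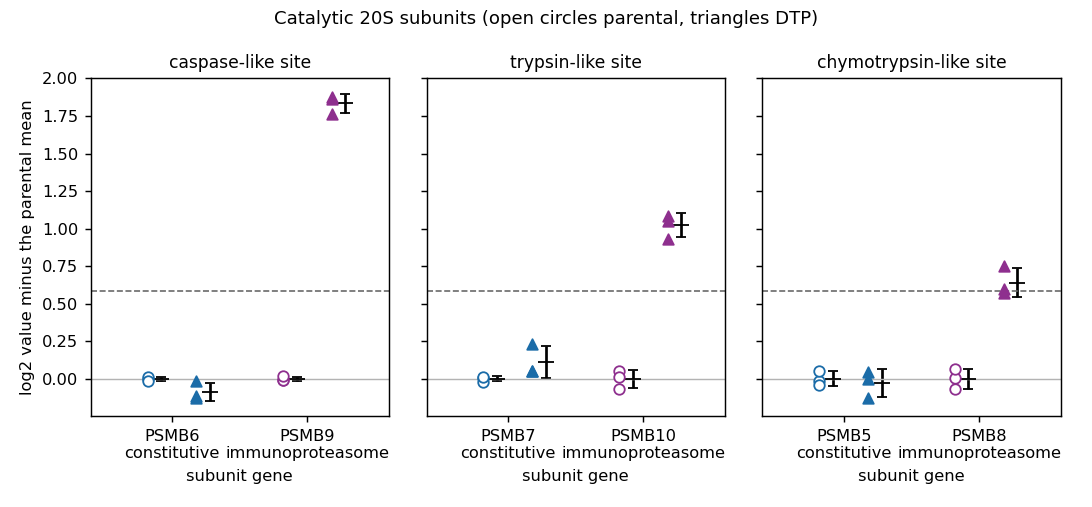
Log2 level relative to the parental mean of each constitutive catalytic subunit and of the immunoproteasome subunit that replaces it, for 3 parental (circles) and 3 DTP (triangles) arrays, with mean and SD. The dashed line marks 1.5-fold, which the DTP means of PSMB9 (1.84), PSMB10 (1.02) and PSMB8 (0.64) exceed.

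Factors that act with the proteasome changed in both directions, beside 20.4% of all genes that rose and 24% that fell. Of 4 measured activators and inhibitors only PSMF1, an inhibitor of the 20S core, passed on the probe set taken. PSMF1 fell by 0.28 ± 0.07 (limma adjusted p = 0.0079), though not once arrays were centred on ribosomal protein genes (adjusted p = 0.093) or spike-ins (0.47). Another probe set of PSME3 was called higher (0.67, limma adjusted p = 1.7e-05), while the rest lay at -0.01, -0.01 and -0.06. Both probe sets of PSME4 passed over by the rule rose (0.22 and 0.29, limma adjusted p = 0.027 and 0.011). Of 6 other assembly factors 2 rose and 1 fell, none called on the probe set taken, although POMP was called higher with centring on spike-ins (0.59). The second probe set of POMP was called higher without such centring (0.59, limma adjusted p = 9.6e-05). POMP, which drives maturation of the core, measured 12.58, 12.56 and 12.60 in parental cells and 12.98, 12.99 and 13.12 in DTPs. It rose by 0.45 ± 0.07 (1.36-fold, limma adjusted p = 1.4e-04), more than any of the 13 core genes. The factor that fell was PSMG4, named after its values were seen (-0.47, limma adjusted p = 4.7e-04). Its other probe sets, all dim, did not pass.

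Of 7 further 19S subunits and associated enzymes 1 rose and 3 fell, none called on the probe set taken, although ECPAS was called lower without parental replicate 1 (-0.59) and UCHL5, named after its values were seen, without DTP replicate 3 (-0.59). An _x_at probe set of UCHL5 was called lower on all arrays (-0.59, limma adjusted p = 1.7e-04). The largest change was that of ECPAS, an adaptor that binds assembled particles, which fell by 0.55 ± 0.07 (1.46-fold, limma adjusted p = 2.5e-05). The mean over the 4 probe sets of ECPAS did not pass (-0.13, limma adjusted p = 0.087). Of 7 ubiquitin shuttle receptors 2 rose and 4 fell on the probe set taken, with the largest change in RAD23B (fell by 0.51 ± 0.07, limma adjusted p = 1.1e-04). Other probe sets of RAD23B (-0.65) and SQSTM1 (0.59 and 0.81) were called, as was a dim one of ZFAND5 (0.79). Of 3 ubiquitin and E1 genes 2 rose, and UBA6, a ubiquitin-activating enzyme, fell by 0.34 (limma adjusted p = 0.0027, but 0.25 on the spike-in scale).

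NFE2L1 itself measured 11.74, 11.89 and 11.98 in parental cells and 11.60, 11.65 and 11.53 in DTPs. The DTP arrays lay below, by -0.28 ± 0.08 (1.21-fold lower, limma adjusted p = 0.011). Without parental replicate 3 the adjusted p was 0.054, and on the ribosomal and spike-in scales it was 0.14 and 0.47. The other probe sets of NFE2L1, one of them a brighter _x_at one, also fell (-0.37 and -0.44, limma adjusted p = 9.7e-04 and 3.0e-04). On both the groups did not overlap. In the list of NFE2L1, its relatives and partners and its processing machinery, 3 of 10 measured genes rose, 5 fell and 2 did not pass, and 2 were called lower. Over all genes 20.4% rose, 24% fell and 6.13% were called lower. With centring on spike-ins 4 of the list fell, beside 9.38% of all genes, and VCP was called higher (0.61).

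The 2 called lower were MAFF and NFE2L2. MAFF, a small Maf partner protein, fell from 12.10, 12.11 and 12.09 to 9.18, 9.06 and 9.21 (-2.95 ± 0.07, 7.73-fold, limma adjusted p = 8.6e-12). NFE2L2 (also called NRF2) fell from 13.15, 13.16 and 13.12 to 12.15, 12.12 and 12.35 (-0.93 ± 0.08, 1.91-fold, limma adjusted p = 5.1e-07). NFE2L3 (-0.53) and MAFG (-0.45) fell without being called (limma adjusted p = 5.3e-05 and 1.6e-04). These 2 and the 3 that rose are named here after their values were seen. The 3 were VCP (0.46), the ATPase that extracts proteins from membranes and complexes, and its cofactors UFD1 (0.32) and NPLOC4 (0.31). Their limma adjusted p was 7.9e-05, 0.0012 and 0.0015. The other probe set of VCP did not pass (0.16, limma adjusted p = 0.15). PSMA4 and PSMB3, whose promoters hold the core of the antioxidant response element, rose, and PSMD9, whose promoter holds it at 2 places, fell. PSMD3, PSMD5 and PSMD12, whose promoters hold it as well, did not pass on the probe set taken. Neither did PSMC4 and PSMD1, which hold it after the start. Another probe set of PSMD12 was called higher (0.64), and a dim one of PSMD5 fell (-0.31, limma adjusted p = 0.0055).

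**Figure D5:**
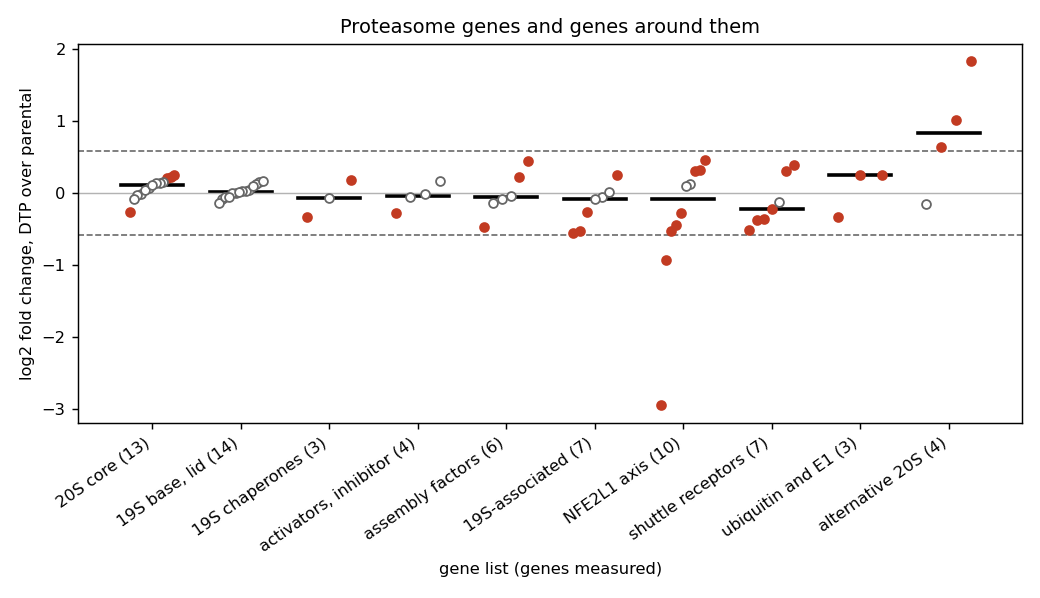
Log2 fold change (DTP over parental cells) of each measured gene in the 3 groups of proteasome genes and the 7 companion lists, with genes past limma's adjusted p in red, the median of each group as a bar and dashed lines at 1.5-fold. The 3 proteasome groups lie between -0.33 and 0.25, while MAFF at -2.95 and PSMB9 at 1.84 mark the ends of the companion lists.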

How the data were processed

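Total RNA from 3 parental and 3 DTP cultures of PC-9 cells was hybridised to Affymetrix Human Genome U133 Plus 2.0 arrays after labelling with a 3′ in vitro transcription kit. The authors deposited log2 values made by RMA with affy (versions not given in the sources used here), including quantile normalisation between arrays, which hides a change of total mRNA per cell. RMA gives no detection call. The labels number the replicates without saying whether cultures were grown separately, so the p-values reflect no more than the spread among these cultures, which may be technical, and 3 arrays per group limit the precision.

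Of 54675 probe sets 62 controls were left out, and 41091 of the rest had exactly 1 gene symbol. Each gene was read from its brightest probe set, leaving aside those ending in _x_at where others existed. The two-sided test of DTPs against parental cells was limma's (version 3.58.1, R 4.3.3, lmFit followed by eBayes, without covariates), run over all 19775 genes and over all 54613 probe sets, with Benjamini-Hochberg adjustment. Errors are limma's SE and 95% intervals its moderated ones. The fit was checked on simulated data with 200 changed genes. Genes, lists and tests were chosen with earlier results of these data known. Given in every array were PSMB5, PSMB6, PSMB7, PSMD14 and the 8 other proteasome genes of largest change. Companion lists are named by their called genes, up to 4 by size of change, or otherwise by the gene of smallest p, with PSMB8, PSMB9, PSMB10, POMP and NFE2L1 always given. Replicate numbers were not taken to pair the arrays. Alternatives were a replicate block, leaving out each array, centring on 52 ribosomal protein genes or 18 spike-in probe sets, cyclic loess, leaving out dim genes, other probe set rules, an intensity trend with robust variances and the methods' t-test, which the study names in its general statistics beside limma for its arrays. Promoter coordinates are those of RefSeq; gene coordinates are left out, as no build is named for the array files.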

Additional observations from a re-analysis of the deposited data

How the results depend on the processing

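No constitutive proteasome gene was called under any alternative run. The number that rose (4) was 1 to 4 on leaving out each array, 3 with a replicate block, 14 centred on ribosomal protein genes, 7 centred on spike-ins, 11 with cyclic loess, 9 with the mean of a gene's probe sets and 8 with an intensity trend and robust variances. Over all genes the share that rose was 20.4%, and 18.6% to 20.2% without single arrays. In the other settings listed it was 19.9%, 29.2%, 24.1%, 22.6%, 21.2% and 21.1%. The number that fell (2) was 1 to 3 without single arrays, and 1, 0, 1 and 1 with ribosomal centring, spike-in centring, _x_at probe sets allowed and the methods' t-test. Over all genes 24% fell, 20.2% to 23.3% without single arrays, and 14.3%, 9.38%, 24.2% and 17.6% in those 4 settings. The median over the 30 genes (0.04) was -0.014 to 0.071 without single arrays, and 0.15, 0.18, 0.092 and 0.10 with ribosomal centring, spike-in centring, cyclic loess and the mean of probe sets. In the same settings the median of the 20S core (0.11) was 0.053 to 0.14, then 0.23, 0.26, 0.17 and 0.18. With _x_at probe sets allowed the core median was 0.078. The median of the 19S base and lid (0.02) was -0.027 to 0.052, 0.13 with ribosomal and 0.17 with spike-in centring. Their difference (0.09) was 0.080 to 0.10 without single arrays, 0.17 with the mean of probe sets and 0.060 with _x_at probe sets allowed. Of the 57 probe sets, 12 rose, and 9 to 10 did without single arrays, 26 with ribosomal centring, 19 with spike-ins, 23 with cyclic loess and 19 with the trend. The 3 that fell were 2 to 6 without single arrays, and 1, 0 and 5 with ribosomal centring, spike-ins and the trend. Shares over all probe sets are given only for the main fit (18.6% rose and 20.1% fell). The cause of these shifts was not tested.

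Signs turned for genes near 0. With ribosomal and spike-in centring these were PSMA5 (0.11, 0.14), PSMB5 (0.089, 0.12), PSMB6 (0.030, 0.061), PSMC3 (0.031, 0.062), PSMD4 (0.062, 0.093), PSMD14 (0.064, 0.095) and PSMD5 (0.056, 0.087), and with spike-ins PSMC4 (0.0051). With cyclic loess PSMA5 was at 0.053, PSMB5 at 0.026 and PSMD14 at 0.0022, and with the mean of probe sets PSMA5 was at 0.57 and PSMD6 at -0.069. Without single arrays PSMA5 ranged from -0.037 to 0.023, PSMB5 from -0.065 to 0.024, PSMC1 from -0.019 to 0.092, PSMD2 from -0.024 to 0.067, PSMD3 from -0.011 to 0.029, PSMD6 from -0.061 to 0.075, PSMD8 from -0.051 to 0.044, PSMD11 from -0.031 to 0.037 and PSMD14 from -0.14 to 0.0048. Same-numbered arrays deviated with correlations of -0.12, 0.02 and -0.06, so a number was not taken to pair them, and with the replicate block 1 of 46 named genes, PSMD10, changed its side of the adjusted p threshold (limma adjusted p = 0.070).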
